A study of Ovis aries with 15 samples.

Results

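The oxidative phosphorylation genes of the sheep kidney were taken as the rows of the deposited expression table that carry the KEGG entry 00190, without the V-ATPase genes whose identifier starts with ATP6V or ATP6AP. This left 162 genes of the 25592 in the table, which was 184 rows with the entry less 22 V-ATPase rows. The libraries were made from the kidneys of male sheep, 4 months old and bred by crossing Dorper with Small-tailed Han, that were housed with 2 animals per pen and fed for 21 d. All animals ate the same total mixed ration, to which nothing was added for CON. For both AFB1 and AFB1_CUR the feed contained aflatoxin B1 at 500 µg per kg of dry matter, and curcumin, at 800 mg per kg, was present for AFB1_CUR alone. Each group had 6 sheep, of which 5 were sequenced, 1 library per animal, so that there were 15 libraries. Aflatoxin B1 is a mould toxin of feed that is activated in liver and kidney, and curcumin is a plant polyphenol with antioxidant properties. The study asked whether curcumin lessens damage by aflatoxin B1 to the intestine, its microbiota and the kidney. Which region of the kidney was frozen is not given in the sources used here. Of the 162 members, 56 were assigned to complex I, 6 to complex II, 12 to complex III, 40 to complex IV and 27 to complex V, and 21 to none of them. For 61 members the start of the identifier gave the complex (NDUF, SDH, UQCR, COX or ATP5), and for the others it was taken from their KEGG orthology entry, because 75 members are listed only by a LOC number.

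Oxidative phosphorylation is the route by which mitochondria turn the electrons of NADH and succinate into ATP. Complex I (NADH dehydrogenase) and complex II (succinate dehydrogenase) pass electrons to ubiquinone, complex III (the cytochrome b-c1 complex) passes them to cytochrome c, and complex IV (cytochrome c oxidase) hands them to oxygen. Complexes I, III and IV pump protons across the inner membrane, and complex V (ATP synthase) lets them flow back to make ATP. A small set of core subunits is encoded in the mitochondrial genome and all others in the nucleus. In the kidney the proximal tubule and the thick ascending limb are rich in mitochondria, because the reabsorption of sodium is paid for in ATP.

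Values are given in FPKM, the fragments per length of transcript and depth of library that the authors computed, so that members of different length can be set side by side. A rank between genes in FPKM therefore rests on the length used for each. The libraries held 50255295 to 68747047 counts in CON, 53609682 to 62999325 in AFB1 and 55108041 to 65706914 in AFB1_CUR. The library labelled AFB1 replicate 1 was kept apart. In it the mean log2(FPKM + 1) of 19 hepatocyte markers was 10.48, against 1.46 to 2.74 in the other 14 libraries, and that of 11 proximal tubule markers was 2.78, against 7.50 to 8.99. The 12 loop and collecting duct markers were at 0.58 in that library and at 5.06 to 6.03 in the others, and the 5 podocyte markers at 0.48 and 3.76 to 4.86. Of the 10 leukocyte markers, the summed FPKM was 188 in AFB1 replicate 2 and 334 in AFB1_CUR replicate 2, against 23.7 to 74.5 in the other 12 kidney-like libraries. All comparisons below use 14 libraries, with 5 in CON, 4 in AFB1 and 5 in AFB1_CUR.

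The levels of subunits made in the nucleus differed widely within and between complexes. Levels in CON are given as mean ± SD in FPKM over its 5 libraries. Nuclear copies of mitochondrial genes apart, the highest was ATP5F1B, the catalytic beta subunit of ATP synthase, at 594 ± 64.3 FPKM, followed by its partner ATP5F1A at 482 ± 63.8. COX8A, COX4I1 and COX6A of complex IV lay close together at 329 ± 44.5, 324 ± 27.0 and 321 ± 29.6, which is within the spread of their libraries. In complex II, the flavoprotein SDHA was at 271 ± 35.1, the iron-sulfur protein SDHB at 170.5 ± 22.8, the membrane anchor SDHC at 158 ± 20.03 and the other anchor SDHD at 20.7 ± 1.94. In counts these anchors were alike, with 12243 to 15457 for SDHC and 12075 to 14961 for SDHD in CON. Their gap in FPKM thus rests on the lengths used. The 3 largest of complex III, UQCRH, the Rieske protein UQCRFS1 and cytochrome c1 (CYC1), were at 173 ± 16.1, 171 ± 27.5 and 165 ± 14.3, again within each other's spread, and the core protein UQCRC1 was at 144 ± 17.4. Complex I had a median of 48.0 FPKM over its 43 tested nuclear members, against 144 over 9 of complex III, 119 over 18 of complex V and 89.4 over 6 of complex II. Complex IV had a median of 22.9 over 25 members, which include assembly factors and near copies of subunits, and 10 of the 25 were under 10 FPKM.

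Within complex I the spread between subunits was wide. NDUFA4, which bears the NDUF name but is now counted with complex IV, was highest among the nuclear members at 205 ± 20.6 FPKM. NDUFV1, which binds the flavin that accepts electrons from NADH, was at 133 ± 18.1. NDUFS1, the largest iron-sulfur subunit, was at 33.2 ± 4.99, and NDUFS4, NDUFB1 and NDUFA5 were at 7.50 ± 0.53, 4.66 ± 0.869 and 4.39 ± 0.403. The isoforms known from other tissues were low. NDUFA4L2, a paralogue of NDUFA4 induced by hypoxia, was at 0.0754 ± 0.0541 and did not pass the filter on low values. COX4I2, the lung isoform of subunit 4, made up 0.421% to 0.739% of the summed FPKM of COX4I1 and COX4I2 in the 14 libraries. The heart and muscle isoform COX6A2 was listed at 0 to 0.405% of the sum of COX6A and COX6A2. Of the 3 genes that encode the same c subunit of the ATP synthase ring, ATP5MC3 gave 57.8% to 64.0% of their summed FPKM, ATP5MC1 21.4% to 27.3% and ATP5MC2 10.5% to 17.8%, an order that was the same in each of these 14 libraries. In counts the order was another, and ATP5MC2 was above ATP5MC1 in each library. ATP5MC2 was above ATP5MC3 in some libraries (CON replicate 5, 11035 against 8632) and below it in others (CON replicate 3, 11711 against 12916). The order in FPKM thus rests on the lengths used.

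The 13 members encoded in the mitochondrial genome stood far above the nuclear ones. Together they took 14.6% ± 2.57 of all counts in CON (SD, n = 5), 16.2% ± 2.93 in AFB1 (SD, n = 4) and 13.4% ± 3.01 in AFB1_CUR (SD, n = 5), while the nuclear members took 1.14%, 1.16% and 1.09% without the 2 nuclear copies of mitochondrial genes described below. Those copies took a further 0.523%, 0.532% and 0.746%. COX1, the catalytic subunit of complex IV, was highest in CON at 28617 ± 4877 FPKM, followed by COX3 at 25892 ± 6164 and the ATP synthase subunit ATP6 at 23332 ± 2677. The complex I subunits ND5 at 1249 ± 195 and ND6 at 614 ± 86.3 were lowest. ND6 is the only one of the 13 on the minus strand. ATP8 and ATP6 overlap by 40 bases and ND4L and ND4 by 7, so reads in those stretches cannot be assigned to one gene. ND5 and ND6, on opposite strands, overlap by 17, where reads can be told apart only by strand, and whether the counting used the strand is not given in the sources used here.

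**Figure D1:**
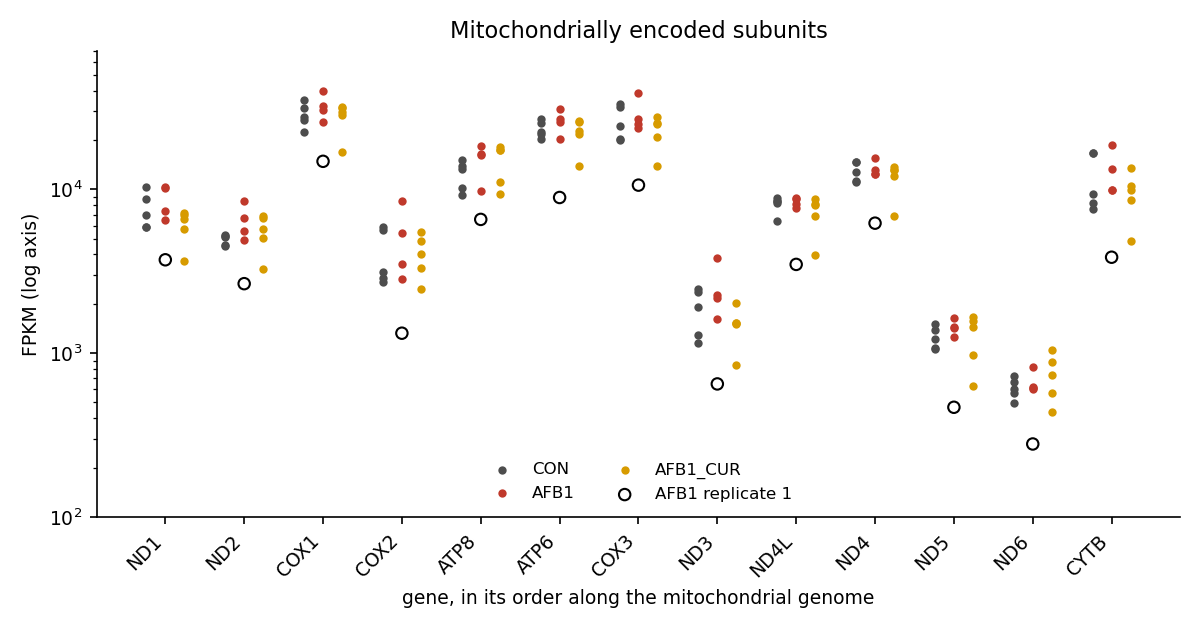
FPKM on a log axis of the 13 mitochondrially encoded members, one point per library, with the 3 groups side by side and AFB1 replicate 1 as an open circle. The groups overlap for each gene, and AFB1 replicate 1 lies lowest for 12 of the 13.

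The nuclear subunits moved together from library to library, and the groups overlapped in this. For the 101 tested nuclear members of complexes I to V, the deviation of log2(FPKM + 1) from each member's median over the 14 libraries had a median of 0.13, -0.06, -0.01, 0.07 and -0.11 in CON replicates 1 to 5. It was -0.25, 0.01, 0.20 and 0.20 in AFB1 replicates 2 to 5 and -0.26, -0.30, 0.06, -0.04 and 0.15 in AFB1_CUR replicates 1 to 5. AFB1 replicates 4 and 5 were high, AFB1 replicate 2 and AFB1_CUR replicates 1 and 2 were low. AFB1_CUR replicate 2 had the lowest value of the 14 libraries for 38 of the 101 members, AFB1_CUR replicate 1 for 29 and AFB1 replicate 2 for 15. AFB1 replicate 4 had the highest for 29, AFB1 replicate 5 for 28 and AFB1_CUR replicate 5 for 16. How often each library was the extreme over all genes was not counted. The median log2(FPKM + 1) of all genes tested also differed, being highest in AFB1_CUR replicate 2 at 3.15 and lowest in AFB1 replicate 5 at 2.71. AFB1 replicate 2 and AFB1_CUR replicate 2 are also the libraries with the highest leukocyte markers, and their summed FPKM of the 11 proximal tubule markers was 3812 and 3388, the lowest among the 14, whose highest was 9901. In AFB1_CUR replicate 1 these values were 51.3 for the leukocyte and 8274 for the proximal tubule markers. Their part in the low subunit levels was not tested. In bulk tissue, fewer cells rich in mitochondria and less RNA of these genes per cell cannot be told apart.

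**Figure D2:**
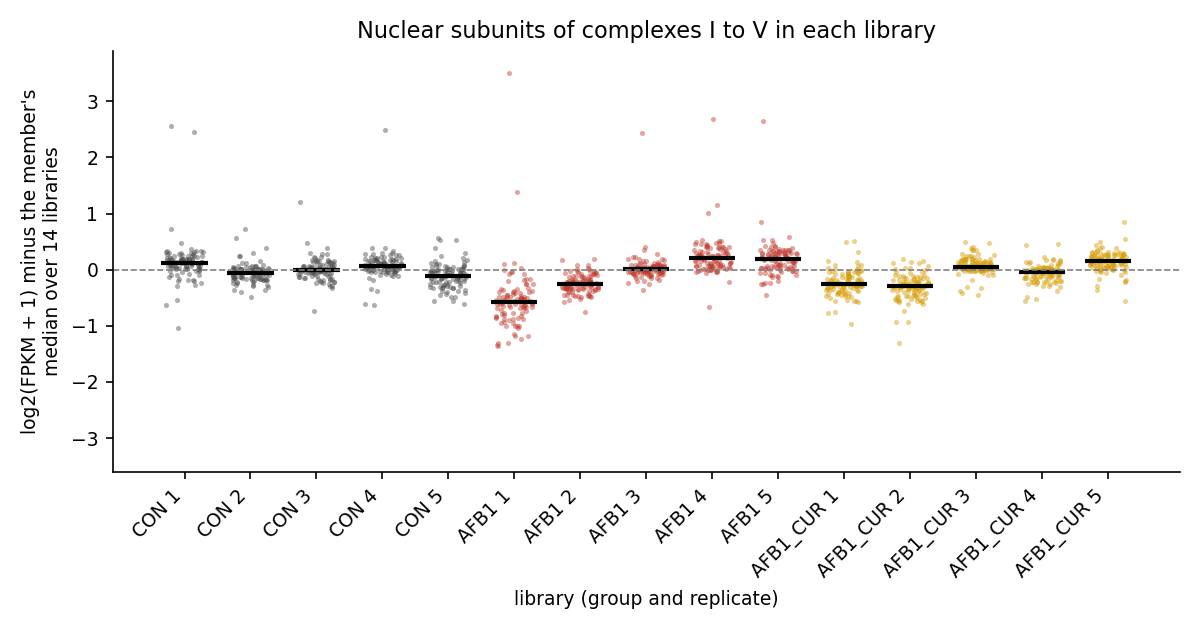
Each point is 1 of the 101 nuclear members of complexes I to V in 1 library, plotted as log2(FPKM + 1) minus that member's median over the 14 libraries, and black bars are the medians of the libraries. AFB1 replicate 1, shown in place, has a median of -0.57, and the bars of the 3 groups overlap among the other libraries.

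The values of 1 core subunit per complex show the size of this spread. NDUFV1 was at 156, 121, 121, 150.3 and 119 FPKM in CON replicates 1 to 5, at 99.996, 126, 131 and 154 in AFB1 replicates 2 to 5 and at 118, 83.8, 142, 125 and 131 in AFB1_CUR replicates 1 to 5. SDHA was at 289, 233, 243, 319.7 and 271 in CON, 203, 246, 249 and 323 in AFB1 and 233, 152, 259.9, 298 and 278 in AFB1_CUR, in the same order. For both, AFB1_CUR replicate 2 was the lowest of the 14 libraries and the groups overlapped, while the highest was CON replicate 1 for NDUFV1 and AFB1 replicate 5 for SDHA. UQCRC1 was at 164, 134, 138, 159.7 and 123 in CON, 111, 143, 154 and 171 in AFB1 and 122, 99.99, 140.0, 135 and 165 in AFB1_CUR. COX4I1, the common isoform of a regulatory subunit of complex IV, was at 353, 336, 308, 336 and 285 in CON, 263, 334, 348 and 321 in AFB1 and 267, 260.0, 320.0, 287 and 329 in AFB1_CUR. ATP5F1B was at 609.5, 536, 552, 698 and 575 in CON, 479, 609, 591 and 753 in AFB1 and 521, 433, 652, 602 and 719 in AFB1_CUR. The groups overlapped for these 3 as well, with AFB1_CUR replicate 2 lowest of the 14 in each. The log2 fold changes of AFB1 against CON were -0.06 (SE 0.20) for NDUFV1, -0.08 (SE 0.24) for SDHA, 0.02 (SE 0.19) for UQCRC1, -0.03 (SE 0.14) for COX4I1 and 0.04 (SE 0.21) for ATP5F1B. None of the 5 had an unadjusted p under 0.05 in any comparison (edgeR).

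Compared with the CON group, the AFB1 group had a small positive median over the pathway and 1 member past the unadjusted threshold, PPA1, a share below that of all genes. Of the 130 members that passed the filter on low values, 1 was higher and 0 were lower at an unadjusted p under 0.05 in edgeR's quasi-likelihood test, where 2.1% of the 13162 genes tested were higher and 2.94% lower. When a fold change over 1.5 was asked for as well, in the same test and libraries, 0 members were called in either direction, against 0.653% of genes higher and 1.11% lower. For 0 members did the libraries of the groups fail to overlap, against 0.517% of genes higher and 1.03% lower. The median log2 fold change of the members was 0.06, beside 0.02 over all genes, and 94 of the 130 were above 0, beside 53.4% of all genes. The median depended on single animals and was -0.02 without AFB1 replicate 5, -0.00 without AFB1 replicate 4 and 0.17 without AFB1 replicate 2. By complex, the medians of the nuclear members were 0.05 for complex I, 0.01 for complex II, 0.06 for complex III, 0.08 for complex IV and 0.06 for complex V. The standard error of a single member had a median of 0.20. The 13 mitochondrially encoded members lay between 0.04 and 0.41, all above 0 (9 of 13 without AFB1 replicate 4), with a median standard error of 0.28, and 0 of them reached an unadjusted p under 0.05. Of the tested cell-type markers, 2 of 11 proximal tubule (median -0.28), 7 of 12 loop and collecting duct (median 0.04), 3 of 5 podocyte (median 0.04), 8 of 8 leukocyte (median 0.83), 6 of 11 hepatocyte (median 0.02), 0 of 2 muscle (median -0.58) and 2 of 2 adipocyte (median 1.44) markers had a log2 fold change above 0 here, and their part in the members' values was not tested. The adipocyte median rested on FABP4, at 62.8 FPKM in AFB1 replicate 2 and 0 to 3.70 in the other AFB1 and the CON libraries. Without that library it was -0.91, and the leukocyte median was 0.24.

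Compared with the AFB1 group, the AFB1_CUR group had lower values for most members, by a small amount. Of the 130 tested members, 0 were higher and 4 lower at an unadjusted p under 0.05, which is 3.08% of the members for the lower ones, beside 1.05% of all genes higher and 1.25% lower. All 4 also passed the fold change of 1.5, beside 0.41% of genes higher and 0.524% lower. The 4 are LOC114115573 and COX8B of complex IV and LOC101114379 and ND3 of complex I, and their values are given below. The median log2 fold change was -0.19 over the members and 0.00 over all genes, and 18 of the 130 members were above 0, beside 50.1% of all genes. All 9 tested nuclear members of complex III and all 6 of complex II were below 0, with medians of -0.26 and -0.15. Complexes I, IV and V had medians of -0.19 over 43, -0.20 over 25 and -0.19 over 18 nuclear members, and the 14 members outside the complexes -0.03. Members of one sample share its depth and its mix of cells, so these signs are not independent of each other. The count was 27 without AFB1 replicate 2 (20.8% of members beside 5.17% of all genes) and 2 without AFB1 replicate 4 (1.54% of members beside 1.88% of all genes). The median ranged from -0.29 without AFB1 replicate 2 to -0.08 without AFB1_CUR replicate 2. Of the tested cell-type markers, 4 of 11 proximal tubule (median -0.05), 3 of 12 loop and collecting duct (median -0.10), 1 of 5 podocyte (median -0.09), 6 of 8 leukocyte (median 0.12), 1 of 11 hepatocyte (median -0.39), 2 of 2 muscle (median 0.48) and 0 of 2 adipocyte (median -1.36) markers had a log2 fold change above 0 here, and their part in the members' values was not tested. Without AFB1 replicate 2 the adipocyte median lay above 0, and FABP4 in AFB1_CUR was at 0.141 to 5.75 FPKM. The leukocyte median turned to -0.40 without AFB1_CUR replicate 2 and to -0.09 without AFB1 replicate 5, and the proximal tubule median to 0.14 and 0.26 without the same libraries. ALB, a defining hepatocyte marker, was at 23.9 and 11.8 FPKM in AFB1 replicates 2 and 3 and at 0 to 4.48 in the other 12 libraries. For 1 member the libraries of the groups did not overlap, beside 0.57% of genes higher and 0.106% lower. It is LOC101117799, listed as cytochrome c oxidase subunit 5A, a gene of 750 bases (chromosome 21, 23718924 to 23719673, plus strand), which was at 3.78, 4.26, 4.09 and 3.91 FPKM in AFB1 replicates 2 to 5 and at 3.17, 2.65, 3.46, 3.51 and 3.48 in AFB1_CUR replicates 1 to 5. Its log2 fold change of -0.36 (SE 0.19) did not pass the test in edgeR (unadjusted p = 0.0802, adjusted p = 1), and CON, at 3.97, 2.73, 3.35, 3.51 and 2.84, overlapped with both. COX5A itself was at 150.3 ± 18.9 (SD, n = 4) and 137 ± 28.8 (SD, n = 5) FPKM.

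Compared with the CON group, the AFB1_CUR group had 0 members higher and 3 lower at an unadjusted p under 0.05, beside 3.26% of all genes higher and 2.23% lower. The 3 are LOC114115573 and COX7A1 of complex IV and ATP5MC2 of complex V. LOC114115573 and COX7A1 also passed the fold change of 1.5, beside 1.05% of genes higher and 0.577% lower, and 0 members had libraries that did not overlap, beside 0.532% higher and 0.19% lower. The median log2 fold change was -0.12, beside 0.00 over all genes, and 21 of 130 members were above 0, beside 49.5% of all genes. Without AFB1_CUR replicate 2, the library with the highest leukocyte markers, the median was -0.03 and the count of members at an unadjusted p under 0.05 was 0, beside 3.45% of all genes. The count was 0 without CON replicate 1, beside 3.32% of all genes, and 6 without AFB1_CUR replicate 5, which is 4.62% of members beside 6.12% of all genes. Of the tested cell-type markers, 1 of 11 proximal tubule (median -0.24), 2 of 12 loop and collecting duct (median -0.08), 2 of 5 podocyte (median -0.03), 8 of 8 leukocyte (median 0.91), 3 of 11 hepatocyte (median -0.38), 1 of 2 muscle (median -0.10) and 1 of 2 adipocyte (median 0.09) markers had a log2 fold change above 0 here, and their part in the members' values was not tested. The leukocyte median was 0.30 without AFB1_CUR replicate 2, and the proximal tubule median turned to 0.03 without CON replicate 5. In all 3 comparisons the marker medians nearest to 0 also changed sign without single libraries. Each pair of the 3 comparisons shares the libraries of a group. In none of the 3 comparisons did edgeR call any of the 13162 genes after Benjamini-Hochberg adjustment. The genes whose unadjusted p was under 0.05 numbered 664, 303 and 723. DESeq2 called 17, 3 and 1 genes after adjustment, none of them a member, and 1, 6 and 3 members at an unadjusted p under 0.05. In DESeq2 these are 0.769%, 4.62% and 2.31% of members, beside 6.15%, 3.14% and 6.69% of all genes. The smallest adjusted p of a member was 0.957, 1 and 0.823 in edgeR.

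**Figure D3:**
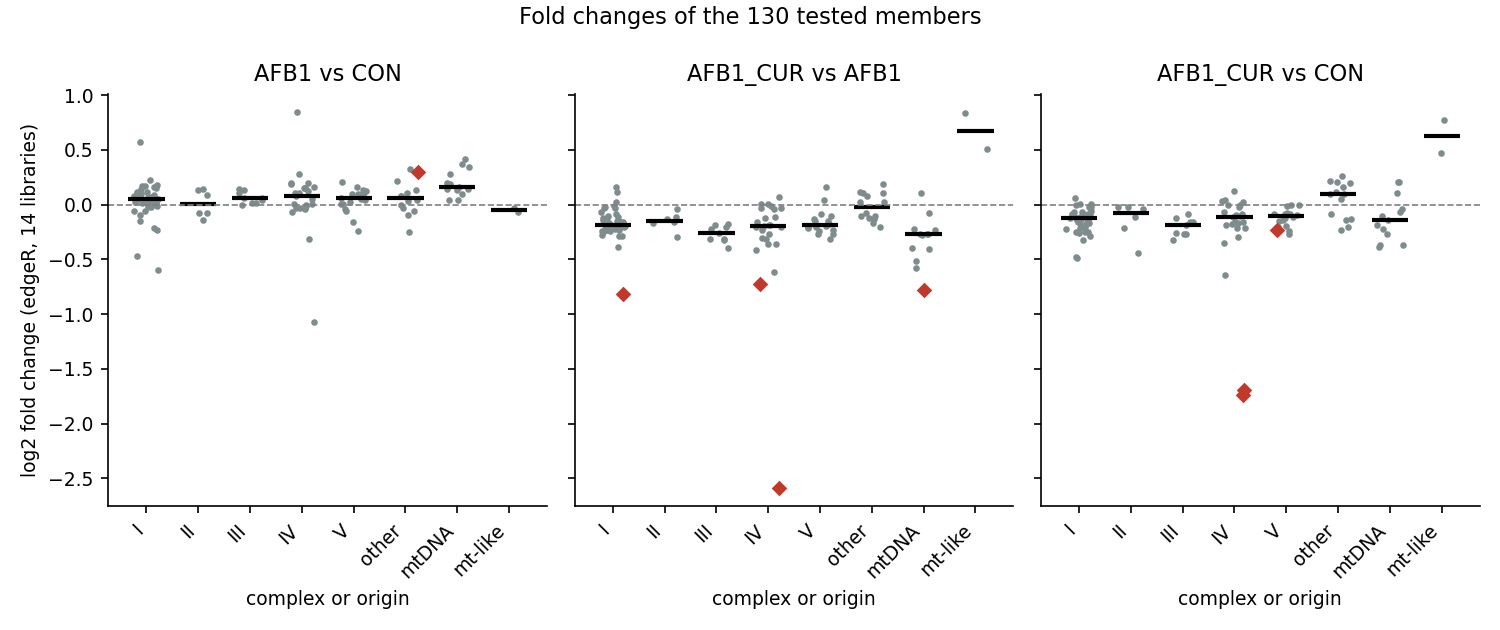
Log2 fold changes (edgeR, 14 libraries) of the 130 tested members by complex, with members outside the complexes (other), the 13 encoded in the mitochondrial genome (mtDNA) and the 2 nuclear copies of mitochondrial genes (mt-like) apart. Black bars are medians and red diamonds mark an unadjusted p under 0.05. There is 1 such member in the first comparison, 4 in the second and 3 in the third.

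LOC114115573 had the largest difference of any member in both comparisons of AFB1_CUR, and its level was either high or low with no library between. It is a protein-coding gene of 407 bases (chromosome 1, 62056380 to 62056786, plus strand) whose KEGG entry is that of COX7C, a small subunit of complex IV. The COX7C gene that spans more bases, LOC114114909 (chromosome 5, 83930056 to 83932324, plus strand, 2269 bases), was at 88.4 ± 11.05 FPKM in CON. LOC114115573 was at 35.6, 4.97, 4.47, 36.8 and 3.75 FPKM in CON replicates 1 to 5, at 4.57, 35.2, 41.9 and 40.9 in AFB1 replicates 2 to 5 and at 5.59, 4.75, 5.80, 4.60 and 6.55 in AFB1_CUR replicates 1 to 5. Of the 15 libraries, none lay between 6.55 and 35.2. The high level was present in 2 of 5 CON, 3 of 4 AFB1 and 0 of 5 AFB1_CUR libraries, so the difference between groups is one of how many animals had it. The log2 fold change was -2.58 (SE 0.77) against AFB1 (unadjusted p = 0.00462, adjusted p = 1, edgeR) and -1.74 (SE 0.72) against CON (unadjusted p = 0.0307, adjusted p = 0.823). The call against CON was lost in 8 of 25 alternatives, and that against AFB1 in 0. COX7C itself was at 77.9, 87.4, 107, 81.6 and 88.2 in CON, 80.7, 81.2, 91.2 and 92.4 in AFB1 and 77.2, 78.7, 122, 87.8 and 112 in AFB1_CUR, with no such gap. Reads of near-identical copies may be split between these genes by the authors' counting, so the level of either is uncertain.

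LOC101114379, a gene of 423 bases (chromosome 14, 48359242 to 48359664, minus strand) with the KEGG entry of NDUFA5, a subunit of the matrix arm of complex I, had its highest level in AFB1. It was at 16.4, 10.4, 12.05, 19.9 and 12.4 FPKM in CON replicates 1 to 5, at 15.4, 19.3, 21.3 and 27.9 in AFB1 replicates 2 to 5 and at 7.17, 14.6, 11.3, 10.1 and 20.8 in AFB1_CUR replicates 1 to 5. AFB1_CUR replicate 5 lay within the AFB1 values, so the groups overlapped, and the log2 fold change of AFB1_CUR against AFB1 was -0.82 (SE 0.30, unadjusted p = 0.0174, adjusted p = 1, edgeR). Without AFB1 replicate 5 the call was lost. NDUFA5 under its own symbol was at 4.25, 3.63, 4.40 and 4.12 in AFB1 and 4.89, 3.91, 5.78, 5.02 and 4.27 in AFB1_CUR, with a log2 fold change of 0.16 (SE 0.15). In FPKM, which divides by the length of transcript, the LOC entry was the higher of the pair in each of the 14 libraries. NDUFA5 had more reads in each, with 841 to 1354 counts against 215 to 773. Reads may be split between the copy and the named gene by the authors' counting, so the level of either is uncertain.

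ND3, a membrane subunit of complex I encoded in the mitochondrial genome, was at 2365, 1289.7, 1902, 2453 and 1158 FPKM in CON, 2272, 2176, 3812 and 1620.3 in AFB1 replicates 2 to 5 and 1519, 841, 2008, 1531 and 1508 in AFB1_CUR. AFB1 replicate 4 was high and AFB1_CUR replicate 2 low. The log2 fold change of AFB1_CUR against AFB1 was -0.78 (SE 0.32, unadjusted p = 0.0298, adjusted p = 1, edgeR), and the call was lost without either of these libraries. COX8B, the isoform of subunit 8 of heart and muscle, was at 9.03, 7.54, 10.8, 4.51 and 9.05 in CON, 7.97, 9.32, 11.2 and 6.21 in AFB1 replicates 2 to 5 and 5.44, 2.45, 5.20, 7.49 and 6.44 in AFB1_CUR, with a log2 fold change of -0.73 (SE 0.33) against AFB1 (unadjusted p = 0.0443, adjusted p = 1). COX8B was low against COX8A, of which AFB1_CUR had 322 ± 83.9 (SD, n = 5) FPKM, and made up 1.01% to 3.14% of their sum. Of its 25 alternatives the call was lost in 11.

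COX7A1, another isoform of heart, muscle and brown fat, was at 12.6, 1.496, 1.55, 0.762 and 2.32 FPKM in CON, 1.25, 1.37, 3.63 and 0.934 in AFB1 replicates 2 to 5 and 0.583, 0.615, 1.204, 0.576 and 3.14 in AFB1_CUR. CON replicate 1 alone was high, and without it the log2 fold change of -1.69 (SE 0.76) against CON (unadjusted p = 0.0429, adjusted p = 0.823, edgeR) was -0.38 with an unadjusted p of 0.51. In CON replicate 1 the 8 muscle markers summed to 17.7 FPKM, in a range of 6.81 to 44.9 over the 14 libraries, with CKM, MB, MYH1 and MYH2 at 0 and TNNT1, at 1.45, at its highest of the 14. The 5 adipocyte markers summed to 6.74, in a range of 2.19 to 66.6, with ADIPOQ at 0 and CIDEC, at 0.239, second highest of the 14. Their part in the COX7A1 value was not tested. ATP5MC2 was at 64.1, 60.7, 52.7, 64.6 and 60.4 in CON, 54.8, 64.0, 62.6 and 52.1 in AFB1 and 50.5, 54.4, 54.8, 57.2 and 53.9 in AFB1_CUR. CON replicate 3 was the only CON library among the values of AFB1_CUR, and the log2 fold change was -0.23 (SE 0.10, unadjusted p = 0.0374, adjusted p = 0.823). The call of ATP5MC2 was lost in 12 of 25 alternatives. The other genes of the c ring had log2 fold changes of -0.00 (SE 0.18) for ATP5MC1 and -0.08 (SE 0.18) for ATP5MC3 in that comparison. PPA1, a cytosolic pyrophosphatase that the entry lists beside the complexes, was the only member at an unadjusted p under 0.05 between AFB1 and CON. It was at 12.2, 13.2, 11.1, 10.998 and 12.4 in CON, 16.3, 12.4, 14.2 and 16.1 in AFB1 and 9.99, 13.6, 13.02, 15.997 and 14.6 in AFB1_CUR, with a log2 fold change of 0.30 (SE 0.13, unadjusted p = 0.0406, adjusted p = 0.957). AFB1 replicate 3 lay within the CON values. The call was lost in 10 of 25 alternatives, among them without AFB1 replicate 5, with the replicate block and with sample quality weights. The mitochondrial pyrophosphatase PPA2 had a log2 fold change of 0.22 (SE 0.16).

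**Figure D4:**
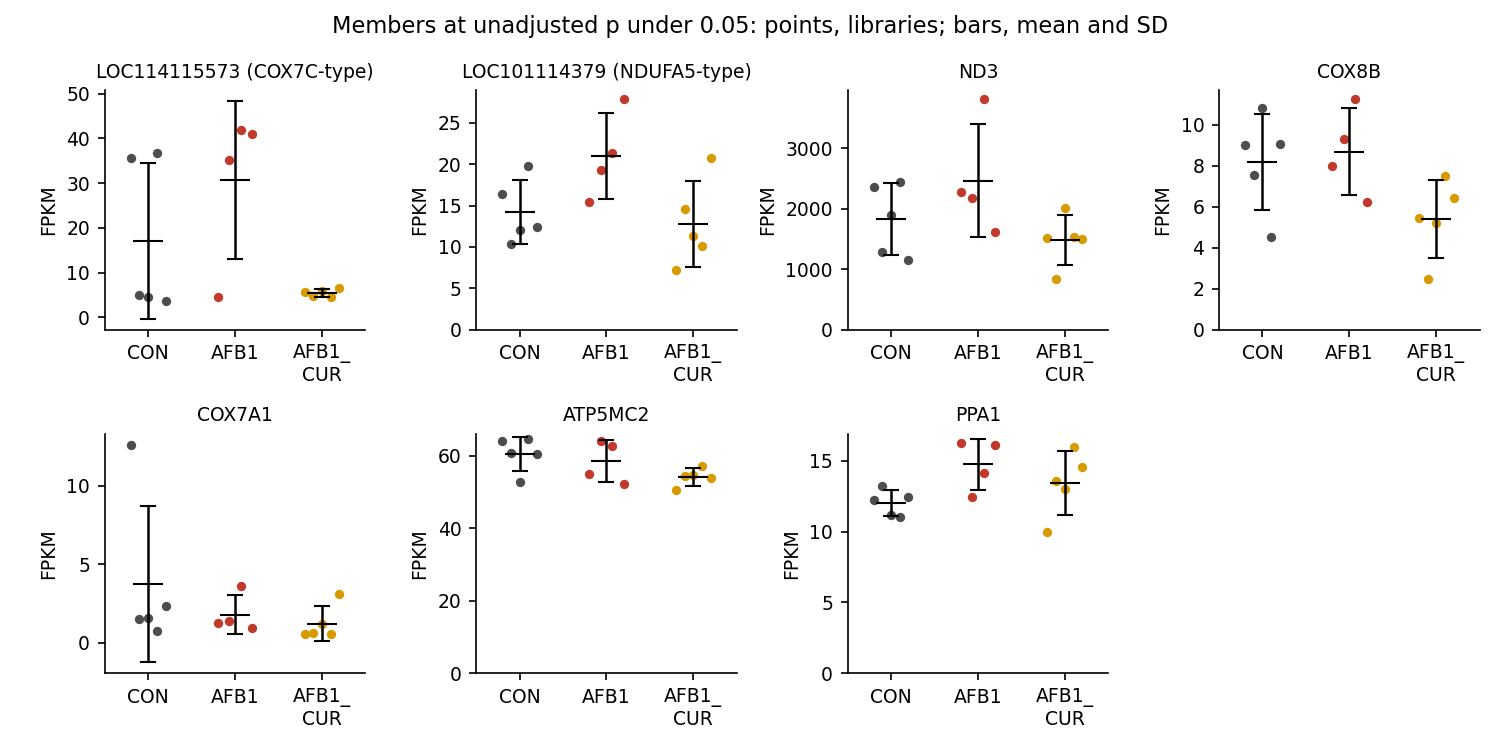
FPKM of the 7 members with an unadjusted p under 0.05 in a comparison, one point per library in CON (n = 5), AFB1 without replicate 1 (n = 4) and AFB1_CUR (n = 5), with the mean and SD as bars. LOC114115573 is high in 2 CON and 3 AFB1 libraries and low in all 5 of AFB1_CUR, COX7A1 has 1 high library in CON, and the ranges of each pair of groups overlap for all 7.

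A pair of nuclear copies of mitochondrial genes is also among the members, and they divided the libraries in another way. LOC121818276 (chromosome X, 59769971 to 59779301, minus strand) is listed as cytochrome c oxidase subunit I and LOC121816987 (chromosome 1, 222014175 to 222016580, plus strand) as NADH dehydrogenase subunit 5, and the RefSeq table gives both as transcribed pseudogenes. The count of LOC121818276 was 2.21% to 3.02% of that of COX1 in 5 libraries and 15.2% to 22.4% in the other 10. The 5 were CON replicates 1 and 3, AFB1 replicates 4 and 5 and AFB1_CUR replicate 5. In the same 5 libraries the count of LOC121816987 was 0.875% to 1.22% of that of ND5, and in the others 6.57% to 13.6%. AFB1 replicate 1, the liver-like library, had high shares. The low shares crossed the groups, with 2 of 5 CON, 2 of 5 AFB1 and 1 of 5 AFB1_CUR libraries.

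Of the 13 genes of the mitochondrial genome itself, CYTB, the only mitochondrially encoded subunit of complex III, and COX2 had their 5 highest values in these 5 libraries. The other 11, COX1, COX3, ATP6, ATP8 and the ND genes, overlapped, COX1 and ND1 by little. The lowest of the 5 libraries was at 31425.2 for COX1 and 7197 for ND1, and the highest of the others at 31427.1 and 7340.1. CYTB was at 16618, 7535, 16623, 9385 and 8284 FPKM in CON replicates 1 to 5, 9836, 9908, 18490.5 and 13315 in AFB1 replicates 2 to 5 and 8540.3, 4845, 10433, 9858 and 13543 in AFB1_CUR replicates 1 to 5. COX2 was at 5636, 3119, 5891, 2703 and 2879 in CON, 3511, 2838, 8469 and 5409.9 in AFB1 and 4838, 2464, 4045, 3325 and 5475 in AFB1_CUR. No test was made of this, because CYTB and COX2 were picked after their values were seen. The log2 fold change of CYTB was 0.15 (SE 0.38) in AFB1 against CON and -0.52 (SE 0.38) in AFB1_CUR against AFB1, and neither had an unadjusted p under 0.05. LOC121818276 and LOC121816987 had log2 fold changes of 0.51 (SE 0.73) and 0.84 (SE 0.92) in AFB1_CUR against AFB1, the opposite sign of COX1 at -0.27 (SE 0.32) and ND5 at -0.23 (SE 0.28), and 0 of the 4 had an unadjusted p under 0.05. The part of the uneven spread of the 5 libraries over the groups in these differences was not tested.

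**Figure D5:**
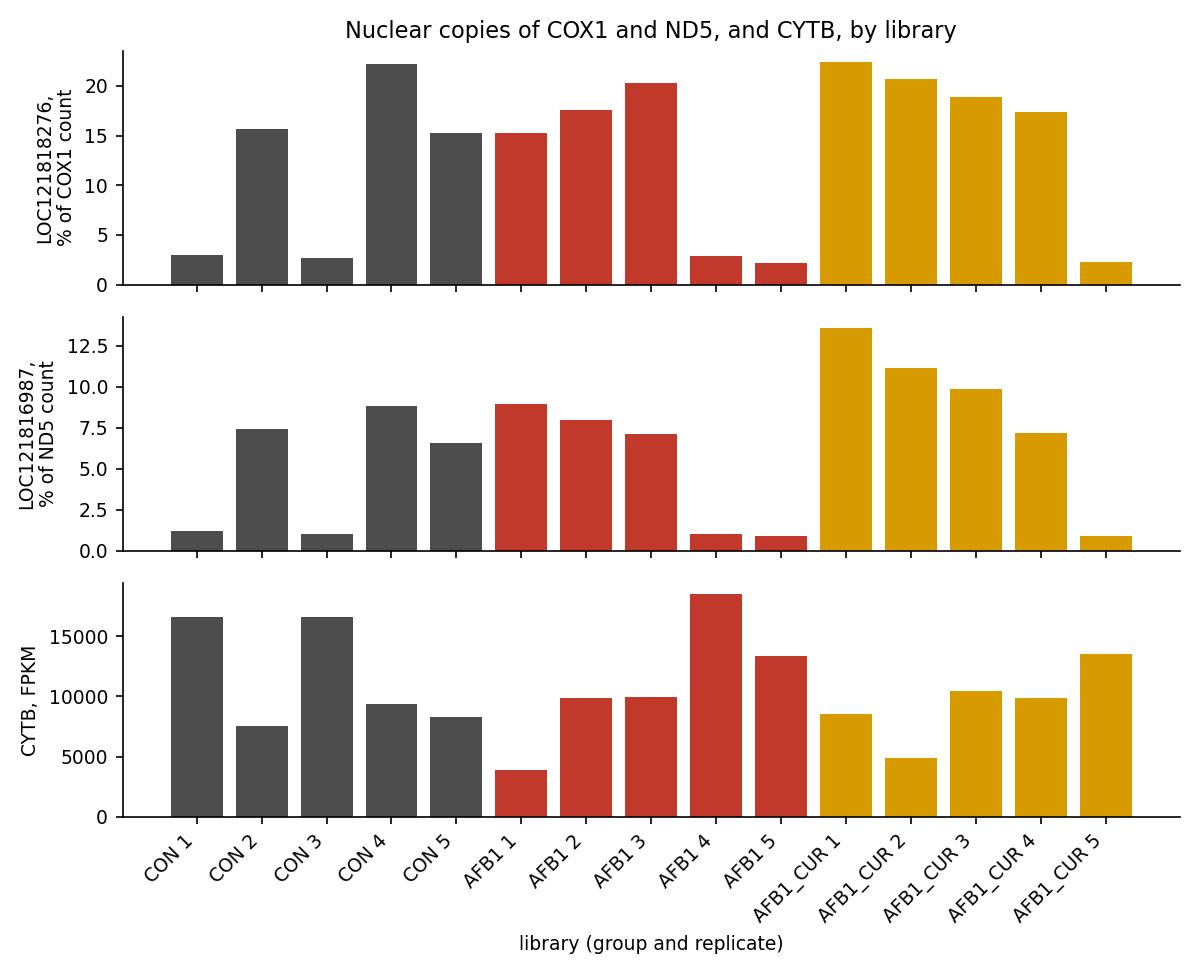
Count of the nuclear copy LOC121818276 in percent of the COX1 count (top), count of LOC121816987 in percent of the ND5 count (middle) and FPKM of CYTB (bottom) in each of the 15 libraries, as bars from 0. CON 1, CON 3, AFB1 4, AFB1 5 and AFB1_CUR 5 have the lowest shares in both upper panels and the highest CYTB values.

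The genes that build, regulate and feed the chain were taken from further lists, and shares of all genes tested at an unadjusted p under 0.05, in both directions, were 5.04%, 2.3% and 5.49% in the 3 comparisons. Of 45 assembly factors on a list, 24 were tested under their symbols, and at an unadjusted p under 0.05 there were 0 between AFB1 and CON, 2 between AFB1_CUR and AFB1, of which 1 was higher and 1 lower, and 0 between AFB1_CUR and CON. FOXRED1, a factor for complex I, was at 26.3, 44.2, 45.1 and 45.8 FPKM in AFB1 replicates 2 to 5 and 30.2, 24.2, 25.1, 16.6 and 26.7 in AFB1_CUR, with a log2 fold change of -0.80 (SE 0.24, unadjusted p = 0.00508, adjusted p = 1, edgeR). AFB1 replicate 2 was the only AFB1 library within the range of AFB1_CUR, and CON, at 38.8, 34.9, 23.4, 36.8 and 21.1, overlapped with both. LYRM7, a factor that matures the Rieske protein of complex III, was low, at 1.16, 0.825, 0.743 and 0.962 in AFB1 and 2.52, 1.31, 1.30, 1.02 and 1.43 in AFB1_CUR, with a log2 fold change of 0.66 (SE 0.28, unadjusted p = 0.0323, adjusted p = 1). Without AFB1_CUR replicate 1, its highest library, it was 0.37 with an unadjusted p of 0.118. Of 21 regulators of mitochondrial biogenesis, all tested, 0 were called in the comparisons with AFB1 and 2 were higher in AFB1_CUR than in CON. TFAM, the factor that packs and transcribes mitochondrial DNA, was at 4.98, 6.58, 5.73, 5.88 and 7.19 in CON and 6.66, 8.60, 7.55, 7.41 and 6.88 in AFB1_CUR, with a log2 fold change of 0.22 (SE 0.10, unadjusted p = 0.0468, adjusted p = 0.823). GABPB1, a subunit of nuclear respiratory factor 2, was at 0.862, 1.25, 0.853, 0.977 and 1.16 in CON and 1.37, 2.05, 1.40, 0.971 and 1.29 in AFB1_CUR, with a log2 fold change of 0.39 (SE 0.16, unadjusted p = 0.0329, adjusted p = 0.823). The groups overlapped for both genes. AFB1_CUR replicate 2, where the leukocyte markers were highest and the proximal tubule markers lowest of the 14 libraries, was the highest for both, and the part of those cells was not tested. Without it the log2 fold change was 0.20 for TFAM and 0.28 for GABPB1, with unadjusted p-values of 0.0829 and 0.108 in edgeR. Over the 14 fits that each left out 1 library, the call was lost in 9 for TFAM and 6 for GABPB1. The median of the 21 regulators was 0.05 in that comparison, above 0, while that of the pathway members was -0.12.

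Of the 18 genes of pyruvate dehydrogenase and the TCA cycle, which supply the NADH and succinate, 0 were called in any of the 3 comparisons, with medians of 0.04, -0.10 and -0.06 and with 12, 3 and 3 genes above 0. Among 8 other enzymes that pass electrons to ubiquinone, GPD2, the mitochondrial glycerol 3-phosphate dehydrogenase, was higher in AFB1 than in CON, with a log2 fold change of 0.65 (SE 0.24, unadjusted p = 0.0171, adjusted p = 0.957, edgeR). It was at 0.653, 1.07, 0.709, 0.848 and 0.852 FPKM in CON and 2.39, 0.931, 1.04 and 0.935 in AFB1 replicates 2 to 5, where replicate 2 alone was above the highest CON library. Without that library the value was 0.27, at an unadjusted p of 0.135. The remaining 7 were not called, and none of the 8 was called in the other comparisons. Of the ATP synthase inhibitor ATP5IF1 and the uncoupling proteins UCP1, UCP2 and UCP3, 2 of 4 passed the filter and 0 were called.

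In the liver-like library labelled AFB1 replicate 1, the nuclear subunits were lower by about as much as all genes were. Relative to the median of the other 14 libraries, the 101 nuclear members of complexes I to V had a median log2 ratio of -0.57, beside -0.59 over all genes tested, and 71 of them (70.3%) lay below all 14 libraries, beside 61.5% of all genes tested. The 13 mitochondrially encoded members were lower still, with a median of -1.24, and took 6.56% of the counts, against 8.08% to 20.6% elsewhere. ND5, COX2 and ND3 were the lowest relative to the others, at 467, 1322 and 648 FPKM, beside medians of 1399, 3778 and 1761. ATP6, CYTB and NDUFB2 followed with log2 ratios of -1.43, -1.36 and -1.35. COX8B went the other way, at 96.0 FPKM beside 2.45 to 11.2, and made up 40.1% of the sum of COX8A and COX8B in this library. The c ring genes also shifted, with ATP5MC1 at 35.5% and ATP5MC3 at 53.6% of their sum. PPA1 was at 56.0 beside 9.99 to 16.3. The other members with the highest ratios carry the entry but are not subunits of the chain. They were C2H2orf72 at 69.6, the antimicrobial peptide LEAP2 at 45.9, the V-ATPase subunit TCIRG1 at 25.6 and ATP4A, the gastric proton pump, at 15.8, beside medians of 1.21, 9.12, 8.21 and 0.243. LEAP2 starts at the same base as UQCRQ of complex III and spans it on the same strand. Reads there may be counted to either gene. Of all 162 members, 9 lay above all 14 libraries. As a single library these values have no error. With it included, the members at an unadjusted p under 0.05 were 4 higher in AFB1 than in CON, 10 lower in AFB1_CUR than in AFB1 and 1 lower in AFB1_CUR than in CON. These are 3.08%, 7.69% and 0.769% of the 130 members, beside 8.12%, 5.8% and 2.73% of all genes.

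Of the 162 members, 32 reached 1 FPKM in fewer than 5 of the 14 libraries and were not tested, 28 of them with LOC numbers. They comprised 5 members of complex I, 2 of complex III, 11 of complex IV, 7 of complex V and 7 outside the complexes, with means in CON of 0 to 1.08 FPKM. Among the members whose identifier gives the complex, the lowest in FPKM of complex I was NDUFA4L2, described above. Those of complexes II, IV and V were SDHD at 20.7, the heme A synthesis factor COX15 at 13.2 and ATP5MF at 14.04 FPKM. Outside the complexes the highest was PPA1 at 11.996 ± 0.922 and the lowest LOC101121753 at 0.00794 FPKM. The coefficient of variation over the 14 libraries had a median of 15.4% in complex I, 16.3% in complex II, 15.9% in complex III, 16.2% in complex IV and 15.5% in complex V for the nuclear members, against 136% for COX7A1 and 98.4% for LOC114115573. ATP5MC2 and ATP5F1C, at 8.58% and 8.55%, were among the 3 lowest.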

How the data were processed

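RNA from the kidney was poly(A)-selected and sequenced as stranded paired-end libraries. The deposited read counts per gene and FPKM values were made by the authors, whose notes name cutadapt 1.9, HISAT2 2.2.1 and StringTie 2.1.6, and neither the genome build nor the counting tool with its strand setting is stated in the sources used here. The coordinates equal those of the RefSeq table of ARS-UI_Ramb_v3.0 for 24848 of 24947 genes matched by symbol, 149 of 149 members among them. Groups were taken from the sample titles. Within each group, the most correlated pair of libraries did not hold identical counts, and other pairs were not compared.

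Counts were tested with edgeR 4.0.16 (R 4.3.3), with TMM and the quasi-likelihood test, on 13162 genes that reached 1 FPKM in 5 or more of 14 libraries. The 3 groups shared 1 estimate of the spread, and p-values were Benjamini-Hochberg adjusted over all genes. AFB1 replicate 1, liver-like by its markers, was left out. Alternatives used limma 3.58.1 and DESeq2 1.42.0, with results in the closing section. Labels give no pens, so p-values measure the spread between animals without a pen term. Levels between genes were compared in FPKM.

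The members and gene lists were chosen with earlier results of these data known. Genes were named by rule: members at an unadjusted p under 0.05, a list of core subunits, the mitochondrially encoded members, the highest and lowest of each complex, members whose libraries did not overlap, the extremes of AFB1 replicate 1, and genes of the other lists past the test. NDUFS4, NDUFB1, NDUFA5, COX7C, ATP5F1C, UQCRH, PPA2 and the nuclear copies were named after their values were seen.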

Additional observations from a re-analysis of the deposited data

Results flagged for a closer look

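Within a group of 4 or 5 libraries, 13 values lay far from the others by Dixon's criterion, of 150 sets of values examined, and chance marks about 1 in 20. AFB1_CUR replicate 2 gave the low values of ND4 (6887 FPKM, others 12042 to 13705), COX1 (16948, others 28444 to 31579) and NDUFS1 (24.2, others 34.8 to 38.4). Its share of counts from the mitochondrial genome was 8.08%, against 14.2% to 15.2% in the other AFB1_CUR libraries, and TCIRG1, a V-ATPase subunit also known from osteoclasts and leukocytes, was high at 20.5 FPKM against 5.99 to 9.09. This library also had the highest leukocyte markers, and their part in these values was not tested.

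In AFB1 replicate 2, ND6 was high at 819.5 FPKM (others 603 to 622) and CYC1 low at 143 (others 172 to 176). In AFB1 replicate 4 the mitochondrial genome gave 20.6% of counts (others 14.1% to 15.2%). ND4L was low in CON replicate 1 at 6425 FPKM (others 8259 to 8802). COX7A1 stood out in each group, at 12.6 FPKM in CON replicate 1 (others 0.762 to 2.32), 3.63 in AFB1 replicate 4 (others 0.934 to 1.37) and 3.14 in AFB1_CUR replicate 5 (others 0.576 to 1.204). C2H2orf72 was at 2.44 in CON replicate 4 (others 1.06 to 1.36).

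In the library left out of the comparisons, AFB1 replicate 1, 6 members exceeded all 5 CON libraries by far. They were C2H2orf72 at 69.6 FPKM (CON 1.06 to 2.44), ATP4A at 15.8 (CON 0.0585 to 0.365), COX8B at 96.0 (CON 4.51 to 10.8), LEAP2 at 45.9 (CON 8.38 to 11.9), PPA1 at 56.0 (CON 10.998 to 13.2) and TCIRG1 at 25.6 (CON 4.73 to 11.4).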

How the results depend on the processing

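The counts of members at an unadjusted p under 0.05 depended on the libraries. With all 15 libraries they were 4 in AFB1 against CON, 10 in AFB1_CUR against AFB1 and 1 in AFB1_CUR against CON, in place of 1, 4 and 3, and C2H2orf72 and LEAP2 then had log2 fold changes of -3.78 and -1.33 in AFB1_CUR against AFB1, the other direction. Leaving out each library in turn gave 0 to 2, 2 to 27 and 0 to 6 members, and medians of -0.02 to 0.17, -0.29 to -0.08 and -0.18 to -0.03. The 27 were without AFB1 replicate 2, where 681 of 13162 genes were called, in place of 303. Without AFB1 replicate 2 and AFB1_CUR replicate 2 together, an alternative chosen after the data were seen, the counts were 4, 14 and 1. That is 3.08%, 10.8% and 0.769% of members, beside 5.75%, 3.97% and 3.68% of all genes. The fit with the replicate number as a block gave 0, 9 and 7. These are 0%, 6.92% and 5.38% of members, beside 5.14%, 2.83% and 7.46% of all genes. But same-numbered libraries correlated at -0.28 to 0.55, and the numbers were not taken as pairs. In limma on log2(FPKM + 1) the counts were 2 in AFB1 against CON and 1 in AFB1_CUR against CON. These are 1.54% and 0.769% of members, beside 4.19% and 5.3% of all genes. With 0.1 in place of 1 they were 2 and 0, beside 4.24% and 5.42% of all genes. In AFB1 against CON, sample quality weights gave 0. The study's cut-offs for p and fold change also gave 0 there, applied to the edgeR fit of 14 libraries. The study's own screening used DESeq2 and was not rerun. Apart from leaving out single libraries, the medians were 0.04 to 0.18, -0.19 to -0.08 and -0.13 to -0.02 over the alternatives. Their sign turned in AFB1 against CON without AFB1 replicate 4 or 5, and in no other case. LOC114115573 in AFB1_CUR against AFB1 kept an unadjusted p under 0.05 in 25 of 25 alternatives, and the other called members in 12 to 24. The causes were not tested. With 4 or 5 libraries per group the median standard error of a member was 0.19 to 0.20 on the log2 scale.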
